A study of Sus scrofa with 9 samples.

Results

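The neuregulin and ERBB receptor genes were followed in the left ventricle of the newborn pig. The 8 members were the rows of the deposited expression table whose gene name was NRG1, NRG4, HBEGF, EGFR, ERBB2, ERBB3, ERBB4 or ERRFI1, out of 22629 rows in all. They comprise 3 ligands, 4 receptors and the feedback inhibitor ERRFI1. Left ventricular myocardium of untreated wild type pigs was collected on postnatal day 0, day 7 and day 15, with 3 RNA libraries per age and 9 in all. The labels give all groups the same genotype, tissue and lack of treatment, and different ages. Breed, sex, litter and batch are not used here and could differ between the ages, and nothing states whether each library is a different animal. The p-values below therefore measure the spread between these samples, which may be technical. Replicate numbers follow the sample titles: 4, 5 and 6 at day 0, then 2, 5 and 6 at day 7, and finally 1, 2 and 6 at day 15.

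Neuregulins and the related epidermal growth factor family ligands are made as membrane-anchored precursors, which proteases cut to release the active domain. The released ligand binds EGFR, ERBB3 or ERBB4, and the bound receptor pairs with a second family member. ERBB2 has no known soluble ligand and serves as the preferred partner, while the kinase of ERBB3 is largely inactive, so that ERBB3 signals through its partner. In the heart, NRG1 from endothelial cells acts on ERBB4 and ERBB2 of cardiomyocytes, an axis required for trabeculation of the embryonic ventricle and studied as a stimulus of cardiomyocyte division around birth. ERRFI1, also called MIG6, is induced by receptor activity and binds the kinase domains to shut them off.

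The values were TPM, the length-normalised share that a gene takes of each library's total. Levels of different genes can therefore be set side by side, but the sequencing depth behind a value is unknown. A single unnamed gene took 24.0% to 46.0% of all TPM per library and was highest in day 15 replicate 1. Some member values are therefore also given relative to a total that omits mitochondrially encoded genes and the top 20 genes (rescaled TPM below). The tissue label was checked against cardiomyocyte markers, whose summed level was 32593 to 43950 TPM over the 9 libraries (8 of 10 listed genes are in the table). The least abundant of these, RYR2, was at 31.6 TPM or more in every library. This check does not tell ventricle from atrium. Atrial markers (4 of 5 listed genes in the table) summed to 154 to 2968 TPM per library. Nearly all of that sum was NPPA (6.79 to 2087 TPM) and MYL4 (110 to 881 TPM). NR2F2 was at 5.77 to 10.9 TPM and SLN at most at 0.110 TPM. The sum was highest in day 0 replicate 5 (2968 TPM) and day 7 replicate 5 (2334 TPM), which also held the highest NRG4 of their ages. The part of atrial tissue in the member values was not tested.

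The 8 members differed in level by more than 2 orders of magnitude, and their order was much the same at each age. NRG4 was the highest, with a mean of 36.0 TPM over the 9 libraries, above 86.9% of the 12268 genes tested. ERBB2 followed at 13.1 TPM, above 65.8% of them. HBEGF (3.02 TPM), ERRFI1 (2.56 TPM), EGFR (1.49 TPM), ERBB3 (1.19 TPM) and ERBB4 (1.02 TPM) were each above fewer than 25% of the genes tested. NRG1 had a mean of 0.121 TPM and did not reach 1 TPM in any library. At each age, the libraries of NRG4 lay entirely above those of ERBB2, and those of ERBB2 entirely above those of HBEGF. HBEGF and ERRFI1 overlapped at each age, as did EGFR and ERBB4. Within single libraries, HBEGF was above ERRFI1 in 3, 2 and 2 of the 3 libraries at day 0, day 7 and day 15. EGFR was above ERBB4 in 3, 3 and 1 of them. The order within these pairs thus did not hold in every library. ERBB3 ranked above EGFR at day 0 and below ERBB4 at day 7 and day 15, but its libraries overlapped those of the neighbouring receptor in each case.

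**Figure D1:**
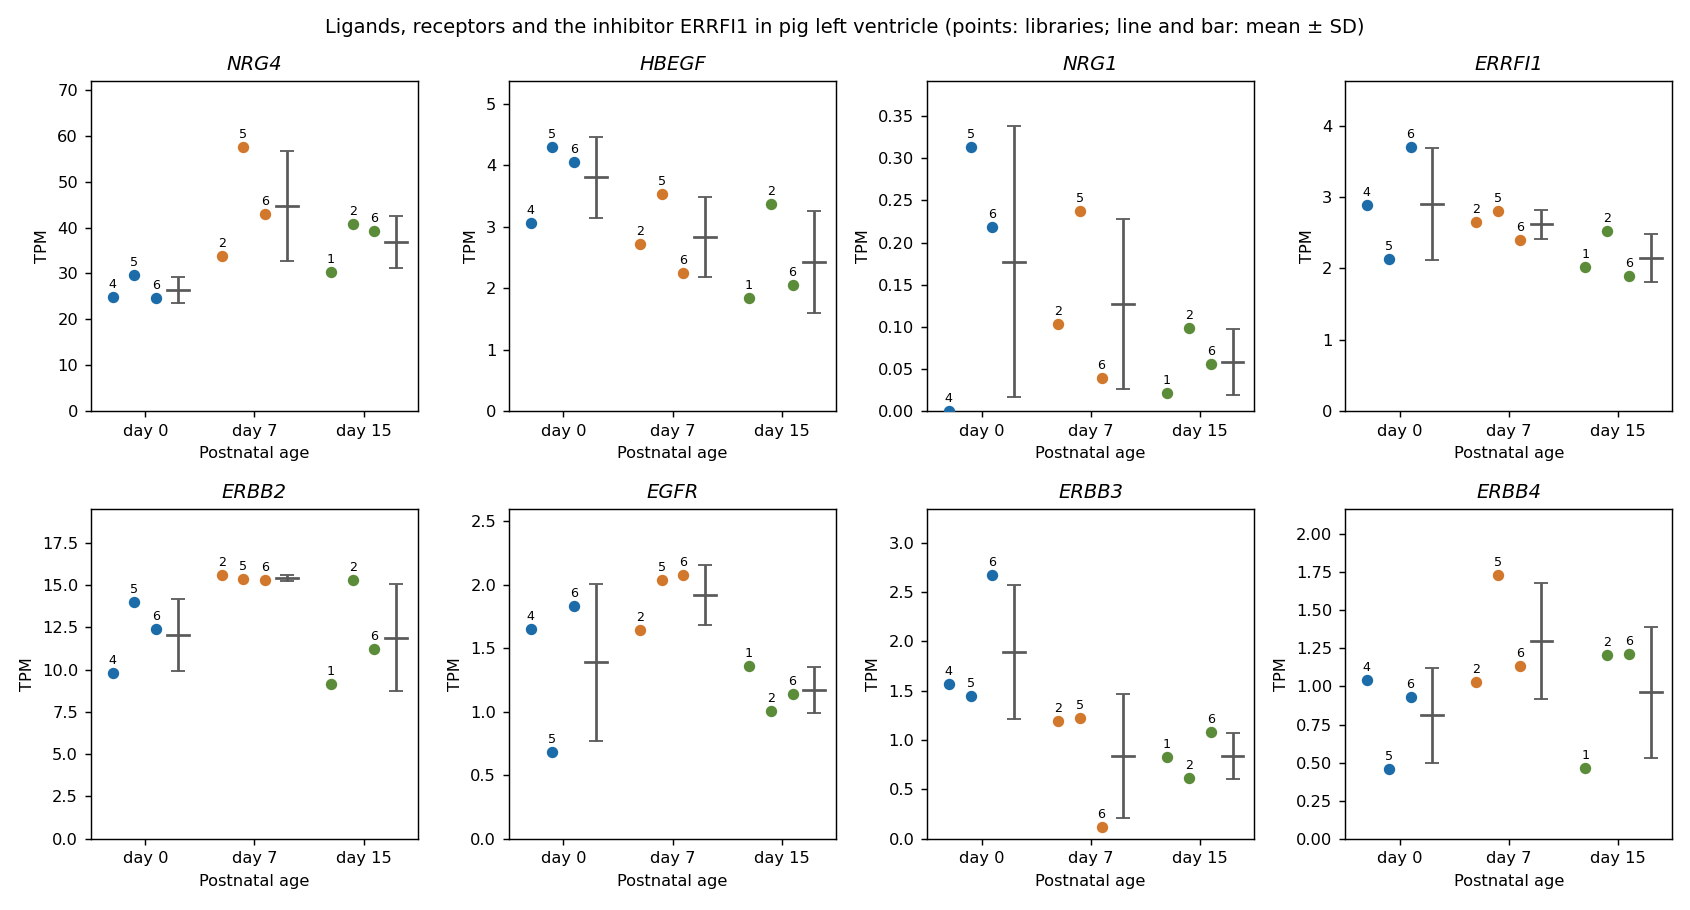
TPM (vertical axes, each from 0) of the 3 ligands, ERRFI1 and the 4 receptors by postnatal age (horizontal axes); points are single libraries with their replicate number, and the grey line and bar beside them give the mean ± SD of 3 libraries. The 3 day 7 libraries of NRG4 (33.8 to 57.6 TPM) all lie above the 3 newborn libraries (24.7 to 29.7 TPM), whereas the ages of HBEGF, ERRFI1 and ERBB4 overlap.

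Changes between the ages were tested with limma on log2(TPM + 1) over all 12268 genes with at least 1 TPM in at least 3 libraries, with p-values adjusted over all of them by the Benjamini-Hochberg method and a threshold of 0.05. NRG1 did not pass this filter, so 7 of the 8 members were tested. Over the first week, day 7 against day 0, 1 of the 7 members changed, where 16.6% of all genes did, and over the second week, day 15 against day 7, 0 of 7 changed, where 0.171% of all genes did. From day 0 to day 15, 0 of 7 changed, where 23.9% of all genes did. At an unadjusted limma p under 0.05 the counts were 2, 0 and 2. The share of all genes at this unadjusted cut is not given, here or beside the unadjusted counts below. That share cannot be lower than the adjusted one, so these counts alone do not set the members apart from other genes. The F test over the 3 ages called 0 of 7 members (2 at an unadjusted p under 0.05), where it called 22% of all genes. The 3 contrasts share libraries and are not independent of each other.

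The median log2 fold change of the 7 members was 0.32 at day 7 against day 0, -0.24 at day 15 against day 7 and -0.11 at day 15 against day 0. The medians of all genes tested were -0.04, -0.15 and -0.19, and after median-of-ratios scaling the last of these was 0.01. The change of scale moved low genes less on log2(TPM + 1): from day 0 to day 15, ERBB2 went from -0.04 to 0.19, EGFR from -0.11 to 0.04 and ERBB4 from 0.11 to 0.20, and none of these passed (limma).

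**Figure D2:**
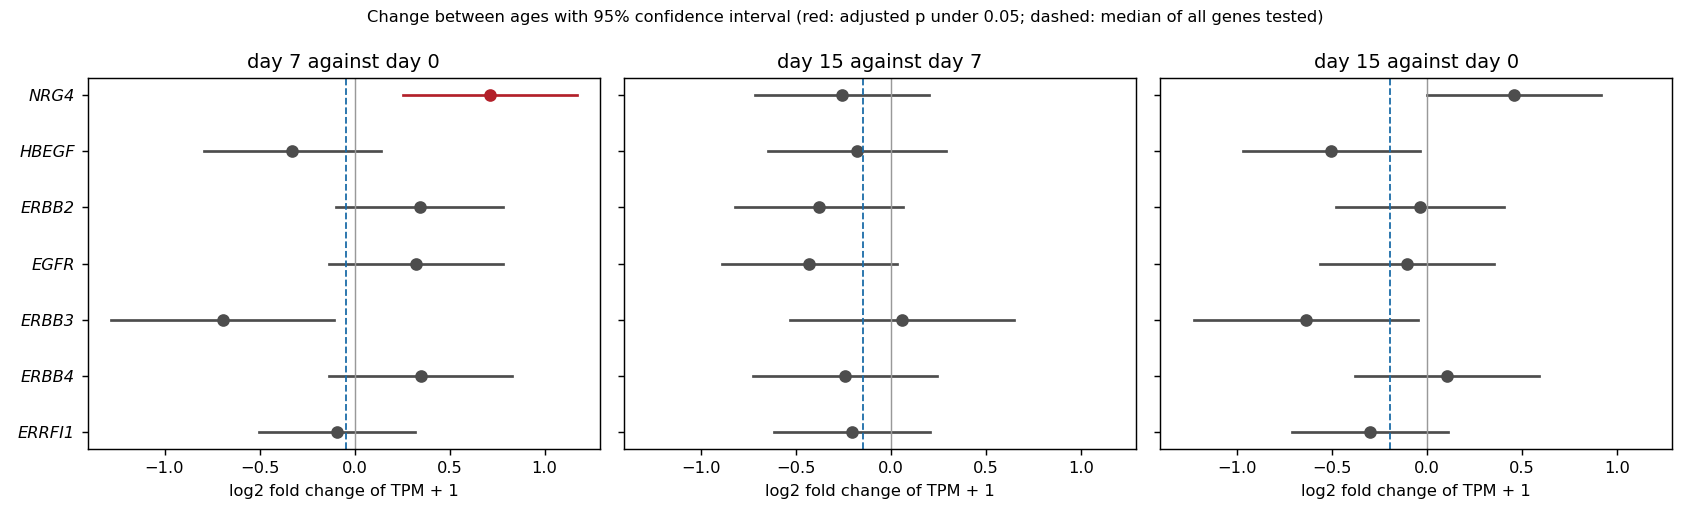
Log2 fold change of TPM + 1 (horizontal axes) of the 7 tested members (rows) in the 3 comparisons of ages (panels), from limma on 9 libraries; points are estimates, bars their 95% confidence intervals, and the dashed line the median of all genes tested. NRG4 at day 7 against day 0 (0.71, red) is the one estimate past the adjusted threshold, and every bar at day 15 against day 7 crosses 0.

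NRG4, a ligand of ERBB4 best known as a factor secreted by adipose tissue, was the member that rose. The newborn libraries held 24.9, 29.7 and 24.7 TPM (replicates 4, 5 and 6), the day 7 libraries 33.8, 57.6 and 43.0 TPM (replicates 2, 5 and 6) and the day 15 libraries 30.3, 40.9 and 39.2 TPM (replicates 1, 2 and 6). Every day 7 and every day 15 library lay above every newborn library, and the ranges of day 7 and day 15 overlapped. The mean went from 26.4 ± 2.84 to 44.8 ± 12.0 TPM (SD, n = 3 per age) over the first week, a log2 fold change of 0.71 ± 0.21 (SE) or 1.64-fold, with a limma adjusted p of 0.0389. At day 15 the mean was 36.8 ± 5.70 TPM, and the difference from day 0 (0.46, 95% confidence interval -0.0015 to 0.91) did not pass (limma adjusted p = 0.129). The difference between day 15 and day 7 (-0.26, interval -0.71 to 0.20) did not pass either (limma adjusted p = 0.634). The contrast of the second week's change minus the first week's was -0.97 for NRG4 and was not past the threshold (limma adjusted p = 0.187). None of the 7 members passed it (1 at an unadjusted p under 0.05), where 1.92% of all genes did.

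The call of NRG4 at day 7 rested on few libraries. Its limma adjusted p was 0.121 without day 0 replicate 4, 0.138 without day 0 replicate 6, 0.139 without day 7 replicate 5, 0.0870 without day 7 replicate 6 and 0.0569 without day 15 replicate 6, with log2 fold changes of 0.52 to 0.89 over the 9 fits that each left out 1 library. On the rescaled TPM the newborn libraries held 24.3, 27.3 and 20.9, the day 7 libraries 32.5, 54.4 and 51.6 and the day 15 libraries 37.5, 38.4 and 43.5. The rise from day 0 to day 15 was then 0.70 (limma adjusted p = 0.0215), and with median-of-ratios scaling 0.69 (limma adjusted p = 0.0127).

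Values of 2 neighbours are given beside NRG4, chosen for their position after the values of NRG4 had been seen. In the RefSeq annotation of Sscrofa11.1, NRG4 overlaps FBXO22, a subunit of a ubiquitin ligase, at one end, and TMEM266, a membrane protein gene, is the next gene at the other. Because the annotation and strand use behind the deposited table are unknown here, reads from the stretch shared with FBXO22 cannot be told apart. FBXO22 held 14.7 ± 1.54, 12.2 ± 1.63 and 13.8 ± 3.47 TPM (SD, n = 3 per age) at day 0, day 7 and day 15, and its ages overlapped. The ratio of NRG4 to FBXO22 was 1.56 to 1.95 in the newborn libraries and 2.33 to 4.44 in the older ones. TMEM266 held 1.85, 3.33 and 2.04 TPM on day 0, 3.89, 4.93 and 3.77 TPM on day 7 and 4.06, 4.60 and 3.76 TPM on day 15. TMEM266 thus had its 6 older libraries above its 3 newborn ones, as NRG4 did. Its log2 fold change at day 7 against day 0 was 0.63 ± 0.20 (SE), with a limma adjusted p of 0.0490 that was lost in 10 of 18 alternative settings. TMEM266 also passed from day 0 to day 15, where NRG4 did not on the deposited TPM. That call of TMEM266 was lost in 9 of 18 alternative settings. The ratio of NRG4 to TMEM266 ranged 1.81-fold over the 9 libraries (7.46 to 13.5), while NRG4 itself ranged 2.33-fold. The part of these neighbours in the NRG4 values was not tested.

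**Figure D3:**
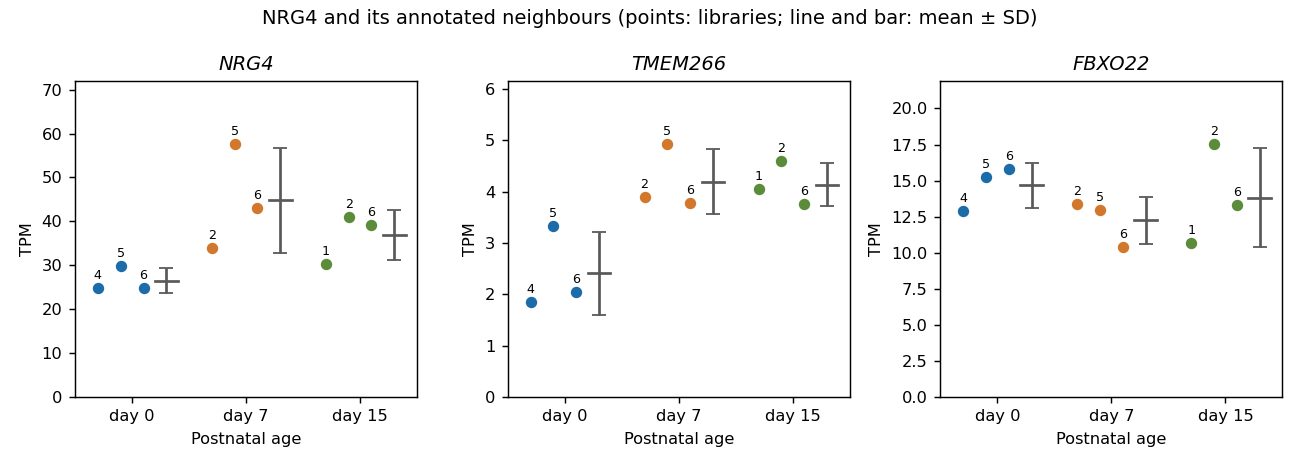
TPM (vertical axes, each from 0) of NRG4 and its annotated neighbours TMEM266 and FBXO22 by postnatal age (horizontal axes); points are single libraries with their replicate number, and the grey line and bar give the mean ± SD of 3 libraries. NRG4 and TMEM266 have all older libraries above the newborn ones, while FBXO22 overlaps between the ages (10.4 to 17.5 TPM over the 9 libraries).

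Adipocyte markers had their lowest summed level at day 7, where NRG4 was highest, but single markers differed. The 6 listed markers, all in the table, summed to 223 to 302 TPM per library at day 0, 61.6 to 127 TPM on day 7 and 164 to 190 TPM on day 15. Of the 3 tested, 0 rose and 1 fell at day 7. Most of that sum was FABP4 (means of 257, 78.7 and 168 TPM at day 0, day 7 and day 15), which endothelial cells also express. Lowest means were instead at day 15 for ADIPOQ (5.11, 0.125 and 0.0784 TPM) and PLIN1 (3.13, 0.0914 and 0.0328 TPM). The same held for CIDEC (1.28, 0.878 and 0.626 TPM) and LIPE (7.56, 7.25 and 4.84 TPM), while LEP was at most at 0.0911 TPM. The adipocyte hormone ADIPOQ was highest in day 0 replicate 6, at 13.5 TPM, and was at 0.141 TPM in day 7 replicate 5, the library with the highest NRG4. Their part in the NRG4 values was not tested. In ventricle tissue, more cells of a type and more RNA per cell cannot be told apart, here and for each gene below.

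HBEGF, a ligand of EGFR and ERBB4 and the receptor for diphtheria toxin, had its highest values in the newborn libraries. These held 3.06, 4.30 and 4.05 TPM, the day 7 libraries 2.72, 3.54 and 2.25 TPM and the day 15 libraries 1.84, 3.38 and 2.06 TPM. Day 15 replicate 2 overlapped the newborn range and the other 2 libraries of that age lay below it. The difference between day 15 and day 0 was -0.50 on the log2(TPM + 1) scale, with an interval of -0.97 to -0.04, and did not pass (limma adjusted p = 0.103). Without day 15 replicate 2 it was -0.69 and passed (limma adjusted p = 0.0319), in this 1 of 18 alternatives only. It was -0.38 without day 15 replicate 1 (limma adjusted p = 0.249). Median-of-ratios scaling gave -0.33 (limma adjusted p = 0.109) and the rescaled TPM -0.32 (limma adjusted p = 0.142). The difference of HBEGF at day 7 against day 0 was -0.33 (limma adjusted p = 0.298).

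NRG1, the principal cardiac neuregulin, was at the floor of the table. It was listed at 0 in day 0 replicate 4, at 0.313 and 0.218 TPM in day 0 replicates 5 and 6, at 0.103, 0.238 and 0.0398 TPM on day 7 and at 0.0211, 0.0991 and 0.0558 TPM on day 15. The ages overlapped, and no fold change is given at these levels. Endothelial markers, the cells from which NRG1 is known, were well above it, with 9 of 10 listed genes in the table, a summed level of 242 to 443 TPM per library and none of these 9 at 0 in any library.

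The other ligands of the family were as low as NRG1 or nearly so. Each of the 8 listed (EGF, TGFA, AREG, EREG, EPGN, BTC, NRG2 and NRG3) is in the table, and none passed the filter. Epigen, EPGN, was the most abundant, at 0.276 to 0.689 TPM. NRG3, a ligand of ERBB4, was at 0 to 0.194 TPM, and NRG2, a ligand of ERBB3 and ERBB4, at 0.0287 to 0.374 TPM. EGF itself held 0.646, 0.289 and 0.860 TPM in the newborn libraries, 0.0908 to 0.144 TPM on day 7 and 0.0453 to 0.160 TPM on day 15. Its newborn libraries did not overlap the older ones, and all values were below 1 TPM. In the fit without the filter, EGF was lower at day 7 (-0.50, limma adjusted p = 0.0406) and at day 15 (-0.53, limma adjusted p = 0.0249) than at day 0, and none of the other 7 ligands or NRG1 passed in these comparisons. TGFA, AREG and BTC, ligands of EGFR, overlapped between the ages, with ranges of 0.0984 to 0.433, 0.0950 to 0.391 and 0.203 to 0.570 TPM. Of the summed TPM of these 8 and the 3 member ligands, NRG4 held 76.3% to 82.9% in the newborn libraries and 87.2% to 91.2% in the older ones. This share includes any reads from the stretch that NRG4 shares with FBXO22, which cannot be told apart here.

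Among the receptors, ERBB2 was the most abundant in each of the 9 libraries. It held 9.81, 14.0 and 12.4 TPM on day 0, 15.6, 15.3 and 15.3 TPM on day 7 and 9.12, 15.3 and 11.2 TPM on day 15. The day 7 libraries lay close together and above the newborn ones, and day 15 spanned both. On the rescaled TPM the day 7 libraries were less close (15.0, 14.5 and 18.4). They still lay above the newborn ones (9.58 to 12.9), and day 15 was at 11.3 to 14.4. The difference of ERBB2 at day 7 against day 0 was 0.34 (interval -0.10 to 0.78) and did not pass on the deposited TPM (limma adjusted p = 0.251). It passed after median-of-ratios scaling (0.40, limma adjusted p = 0.0396) and on the rescaled TPM (0.50, limma adjusted p = 0.0303). From day 0 to day 15 the estimate was -0.04 on the deposited TPM and 0.20 on the rescaled TPM, and passed on neither (limma adjusted p = 0.916 and 0.336).

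ERBB4, the receptor that binds neuregulins in cardiomyocytes and carries an active kinase, was among the lowest genes past the filter. It held 1.04, 0.456 and 0.933 TPM on day 0, 1.03, 1.73 and 1.13 TPM on day 7 and 0.464, 1.21 and 1.21 TPM on day 15. The 3 ages overlapped, with day 0 replicate 5 and day 15 replicate 1 low and day 7 replicate 5 high. The difference at day 7 against day 0 was 0.35 (interval -0.14 to 0.83, limma adjusted p = 0.287). From day 0 to day 15 it was 0.11 (interval -0.38 to 0.59, limma adjusted p = 0.752). ERBB2 exceeded ERBB4 by 8.85-fold to 30.7-fold within a library, with medians of 13.3-fold, 13.5-fold and 12.7-fold at day 0, day 7 and day 15. This ratio does not depend on the scale of a library, and its ages overlapped.

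EGFR held 1.65, 0.683 and 1.83 TPM on day 0, 1.65, 2.04 and 2.08 TPM on day 7 and 1.36, 1.01 and 1.14 TPM on day 15. All day 15 libraries were below all day 7 libraries, and the newborn libraries spanned both because replicate 5 was low. On the rescaled TPM the 2 older ages overlapped, with 1.69 in day 15 replicate 1 and 1.58 in day 7 replicate 2. Of the 7 members, 1 was without overlap between day 15 and day 7 on the deposited TPM, where 19.4% of all genes were. The difference between day 15 and day 7 was -0.43 (interval -0.89 to 0.03) and did not pass (limma adjusted p = 0.420). Fibroblast markers, cells in which EGFR is well known, summed to 934 to 1450 TPM on day 0, 1654 to 2281 TPM on day 7 and 1223 to 1519 TPM on day 15 (9 of 9 in the table). At day 15 against day 7, 0 of these 9 passed the limma test, and the mean of PI16 was 33.2 TPM on day 7 and 49.2 TPM on day 15. Summed endothelial markers (371 to 443 against 242 to 290 TPM) and pericyte and smooth muscle markers (272 to 288 against 192 to 229 TPM) were also lower at day 15 than at day 7 without overlap. These marker sums are on the deposited TPM and were not rescaled. The part of these cell types in the EGFR values was not tested.

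ERBB3, which binds neuregulins but signals through its partner, had the widest range of the 7 tested members, 22.7-fold from the lowest to the highest library. The newborn libraries held 1.57, 1.44 and 2.68 TPM, the day 7 libraries 1.19, 1.22 and 0.118 TPM and the day 15 libraries 0.827, 0.616 and 1.08 TPM. All older libraries were below all newborn libraries, and day 7 replicate 6 was far below the other 2 of its age. Among the 7 members, 3 were without overlap at day 7 against day 0 (NRG4 and ERBB2 higher, ERBB3 lower), where 41.4% of all genes were. At day 15 against day 0, 2 were (NRG4 higher, ERBB3 lower), where 39.9% of all genes were. The log2 fold change of ERBB3 was -0.69 at day 7 against day 0 (interval -1.28 to -0.11, limma adjusted p = 0.0945) and -0.64 at day 15 against day 0 (interval -1.22 to -0.05, limma adjusted p = 0.103), and neither passed. Without day 7 replicate 6, the day 7 difference was -0.37 (limma adjusted p = 0.317). The day 15 difference does not use that library, so its estimate could not change. Its SE went from 0.270 to 0.205, and it passed (limma adjusted p = 0.0454), in this 1 of 18 alternatives only. It was -0.45 without day 0 replicate 6 (limma adjusted p = 0.346) and -0.48 on the rescaled TPM (limma adjusted p = 0.192).

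Schwann cells, the glia of peripheral nerves, are known to carry ERBB3 as the receptor for axonal neuregulin. Their defining transcription factor SOX10 held 1.82, 2.16 and 2.93 TPM on day 0, 1.84, 1.24 and 0.0916 TPM on day 7 and 0.828, 0.634 and 1.08 TPM on day 15. The ratio of ERBB3 to SOX10 was 0.649 to 1.29 over the 9 libraries, a 1.98-fold range, while SOX10 ranged 32.0-fold. SOX10 was singled out after its values were seen, and GFRA3 and MBP did not share its pattern. GFRA3, a receptor for a neurotrophic factor, held 4.79 ± 1.38, 7.78 ± 0.914 and 3.93 ± 1.33 TPM (SD, n = 3 per age), with all day 7 libraries above the others. MBP, a myelin gene also made in other cells, held 3.59 ± 1.75, 3.76 ± 2.60 and 3.16 ± 1.97 TPM. NGFR, a neurotrophin receptor, fell from 2.66 ± 0.863 TPM on day 0 to 1.05 ± 0.284 TPM on day 15 (-0.82, limma adjusted p = 0.0484). SOX10 itself did not pass (-0.78 at day 7, limma adjusted p = 0.0909; -0.83 from day 0 to day 15, limma adjusted p = 0.0614). CDH19 was at 0 in 1 library, day 7 replicate 6, and at most at 0.558 TPM. Its means were 0.391, 0.162 and 0.153 TPM at day 0, day 7 and day 15, all below 1 TPM. The part of nerve tissue in the ERBB3 values was not tested.

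**Figure D4:**
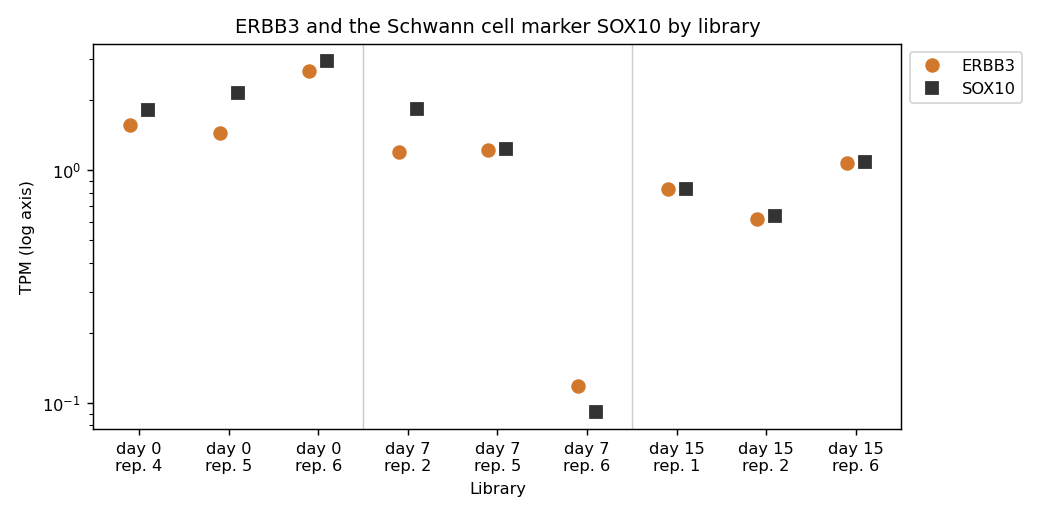
TPM on a log axis (vertical) of ERBB3 and of the Schwann cell marker SOX10 in each of the 9 libraries (horizontal axis, ordered by age); each symbol is 1 library. Both genes are lowest in day 7 replicate 6, where ERBB3 is at 0.118 TPM and SOX10 at 0.0916 TPM.

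As a share of the summed TPM of the 4 receptors, ERBB2 made up 69.5% to 84.4% per library. EGFR made up 4.12% to 11.7% and ERBB4 2.75% to 8.53%, and both overlapped between the ages. The share of ERBB3 was 8.70% to 15.0% in the newborn libraries and 0.634% to 7.37% in the 6 older ones, without overlap. The summed receptor level was 16.2 ± 1.92, 19.5 ± 0.864 and 14.9 ± 3.19 TPM on day 0, day 7 and day 15 (SD, n = 3 per age). All day 7 libraries were above all libraries of the other 2 ages, although day 7 replicate 6 (18.6 TPM) was close to day 15 replicate 2 (18.1 TPM). These shares are descriptions without a test.

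**Figure D5:**
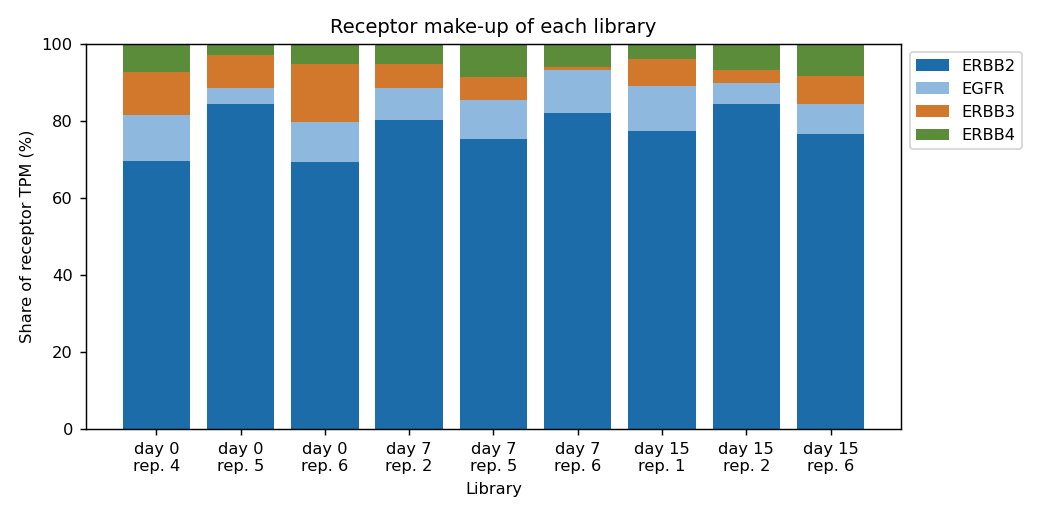
Share of the summed TPM of the 4 receptors (vertical axis, percent) in each library (horizontal axis, by age and replicate); stacked bars show ERBB2, EGFR, ERBB3 and ERBB4 from the bottom up. ERBB2 makes up 69.5% to 84.4%, and the ERBB3 part is larger in the 3 newborn libraries than in any older one.

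ERRFI1, the inhibitor, held 2.89, 2.14 and 3.70 TPM on day 0, 2.65, 2.80 and 2.39 TPM on day 7 and 2.02, 2.53 and 1.89 TPM on day 15. The ages overlapped in each comparison. The difference from day 0 to day 15 was -0.30 (interval -0.71 to 0.11) and did not pass (limma adjusted p = 0.262), and that at day 7 was -0.09 (limma adjusted p = 0.750). Relative to ERBB2, ERRFI1 was at 0.152 to 0.299 at day 0, 0.157 to 0.183 at day 7 and 0.165 to 0.221 at day 15.

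The genes around the receptors were taken from 6 lists with 104 different genes, of which 89 were tested. At day 7 against day 0, 4 rose and 6 fell, where 7.67% of all genes rose and 8.88% fell, at day 15 against day 7, 0 changed (9 at an unadjusted limma p under 0.05), and from day 0 to day 15, 1 rose and 8 fell, where 5.53% of all genes rose and 18.4% fell. The median log2 fold changes of these 89 were -0.01, -0.12 and -0.15, close to those of all genes tested. Of 10 genes of ligand release, RHBDF1, an inactive rhomboid protein that steers the protease ADAM17, went from 9.61 ± 2.96 to 17.7 ± 4.60 TPM on day 7 (0.83, limma adjusted p = 0.0445) and held 16.9 ± 3.33 TPM on day 15 (0.78 against day 0, limma adjusted p = 0.0442). The other 9 did not pass, and the most abundant, the protease FURIN, held 30.9 ± 4.35, 27.0 ± 6.59 and 34.4 ± 5.79 TPM. Of 19 negative regulators tested, 1 rose at day 7, the ubiquitin ligase CBLB (2.81 ± 0.446 to 5.82 ± 1.24 TPM, 0.83, limma adjusted p = 0.0218), and 0 passed from day 0 to day 15 (3 at an unadjusted limma p under 0.05). STUB1, the most abundant of them, held 43.2 ± 3.67, 48.0 ± 7.25 and 49.7 ± 7.21 TPM.

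Of 34 adaptors and kinases tested, 2 rose at day 7, where 7.67% of all genes did. The 2 were PIK3R2, a regulatory subunit of PI3 kinase (4.39 ± 0.934 to 7.66 ± 0.378 TPM, 0.70, limma adjusted p = 0.0220), and the docking protein GAB1 (14.3 ± 3.55 to 24.5 ± 3.55 TPM, 0.75, limma adjusted p = 0.0362). At day 15, PIK3R2 held 3.62 ± 0.343 TPM and GAB1 16.2 ± 3.36 TPM. The adaptor SHC1 fell from 19.4 ± 3.39 at day 0 to 12.7 ± 1.20 TPM on day 15 (-0.57, limma adjusted p = 0.0363). The kinase ARAF, the most abundant of these 34, held 60.3 ± 5.72, 56.0 ± 7.33 and 53.9 ± 5.80 TPM.

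Of 17 genes that ERK signalling can induce, 0 rose and 5 fell at day 7 and 0 rose and 4 fell from day 0 to day 15, with medians of -0.33 and -0.23. Over all genes tested, 8.88% fell at day 7 and 18.4% from day 0 to day 15, with medians of -0.04 and -0.19. Other growth and stress signals induce the same 17 genes. MYC, a transcription factor of cell growth, went from 27.0 ± 7.89 to 10.4 ± 1.95 and then 6.37 ± 1.98 TPM (-1.27 at day 7, limma adjusted p = 0.00929; -1.92 from day 0 to day 15, limma adjusted p = 0.00107). The immediate early gene EGR1 fell from 11.3 ± 2.09 to 5.91 ± 1.79 TPM on day 7 (-0.85, limma adjusted p = 0.0220) and held 5.64 ± 0.400 TPM on day 15. FOS (4.21 ± 0.434 to 1.70 ± 0.915 TPM), HMGA1 (-0.88) and UPP1 (-0.89) also fell at day 7, while cyclin D1, CCND1, fell by -0.70 from day 0 to day 15. JUN, the most abundant of the list, held 58.3 ± 22.8, 72.9 ± 11.2 and 61.3 ± 17.1 TPM and did not pass in either comparison. The feedback phosphatase DUSP6, on this list and on that of negative regulators, had differences of 0.28 and 0.20 that did not pass (limma adjusted p = 0.344 and 0.473).

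Of 12 chaperones and partners of the receptors tested, 0 rose and 1 fell at day 7 (AHSA1, a cochaperone of HSP90, -0.69, limma adjusted p = 0.0458), and 0 rose and 3 fell from day 0 to day 15. These 3 were AHSA1 (-0.71), the kinase-loading cochaperone CDC37 (92.1 ± 10.7 to 58.4 ± 4.72 TPM, -0.64, limma adjusted p = 0.0200) and the scaffold DLG4 (-0.75). Over all genes tested, 8.88% fell at day 7 and 18.4% from day 0 to day 15. HSP90AA1, the most abundant of these 12, held 512 ± 40.8, 359 ± 52.7 and 339 ± 119 TPM, and its difference from day 0 to day 15 did not pass (limma adjusted p = 0.0573). These pathway counts depended on single libraries. At day 7 against day 0 they were 0 up and 2 down without day 0 replicate 4, 0 and 0 without day 0 replicate 6, and 2 and 3 without day 7 replicate 2. Without day 7 replicate 5 they were 0 and 5, and without day 7 replicate 6 they were 1 and 1. From day 0 to day 15 the falls numbered 5 without day 0 replicate 4, 1 without day 0 replicate 6, 5 without day 15 replicate 1, 16 without day 15 replicate 2 and 1 without day 15 replicate 6. The single rise, RHBDF1, was lost without day 0 replicate 4 or 6, day 7 replicate 2, or any 1 of the 3 day 15 libraries. The numbers of all genes called in the same fits are not given here. Whether pathway genes lost calls more often than other genes therefore cannot be told.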

How the data were processed

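Left ventricular RNA of 9 pig libraries (3 per age) was analysed. The authors deposited 1 table of TPM values, 22629 rows by 9 libraries, each column having the same total. Per the submitters' processing notes, the tools were kallisto 0.43.1, Trimmomatic 0.33 and HISAT2 2.0.5, with neither order nor role stated. Build, annotation and strand use: not given in the sources used here. A reference table of names matched 915 of the 7534 rows that carry Ensembl identifiers, which added 889 symbols. HMGA1 and HSP90AA1 have near-identical copies, so their values are less certain. TPM keeps no depth, so no counting interval is given.

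Genes with at least 1 TPM in at least 3 libraries (12268) were fitted with limma 3.58.1 in R 4.3.3 on log2(TPM + 1), a pseudocount of 1 that understates changes of low genes: 1 mean per age, all 9 libraries, 6 residual degrees of freedom, empirical Bayes with a mean-variance trend, Benjamini-Hochberg adjustment over all genes, threshold 0.05. The step was tested on simulated data. Intervals are 95% limma intervals. With 3 against 3 libraries an exact permutation test cannot pass, so none was run.

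The members and lists were chosen with earlier results of these data known. Beyond the members, the text names list genes past the threshold (up to 6 per list and comparison by adjusted p), the most abundant gene of each list and all family ligands. Genes of like pattern were to be named for members past the F test; none passed. DUSP6, FBXO22, TMEM266 and single marker genes are outside this rule and were chosen after values were seen. Alternatives were pseudocounts of 0.1 and 5, no filter, median-of-ratios scaling, TPM rescaled to a total that omits mitochondrially encoded genes and the top 20 genes, and fits without each library in turn. Further fits used a robust variance, no mean-variance trend, only the 2 ages being compared, or a replicate block. Some genes of the nerve marker list are not reported here, so no count or sum is given for it. No sequences were used here.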

Additional observations from a re-analysis of the deposited data

Results flagged for a closer look

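PIK3R2, a regulatory subunit of PI3 kinase, was the gene named here whose change over the second week differed from that over the first. The contrast of the second week's change minus the first week's was -1.60 ± 0.30 (SE) on the log2(TPM + 1) scale, with a limma adjusted p of 0.0316. The newborn libraries held 3.55, 5.40 and 4.23 TPM, the day 7 libraries 7.87, 7.88 and 7.22 TPM and the day 15 libraries 3.47, 3.37 and 4.01 TPM, so every day 7 library lay above every other library. Of the 89 pathway genes tested, 1 passed this contrast, where 1.92% of all genes did. The call was lost in 7 of 17 alternatives, with limma adjusted p of 0.00672 to 0.137 over all of them. These were the fit without the filter (0.0638) and those without day 0 replicate 4 (0.0808) or 6 (0.0778), day 7 replicate 2 (0.137), 5 (0.0846) or 6 (0.0956), or day 15 replicate 6 (0.0525). The 2 steps share the day 7 libraries.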

How the results depend on the processing

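Counts of members called at day 7 against day 0 (1 in the fit as reported) were 0 with no filter, 2 after median-of-ratios scaling and 2 on the rescaled TPM, and 0 to 1 over the fits without 1 library. At day 15 against day 0 and in the F test over the ages (0 each), both scalings gave 1, and the fits without 1 library gave 0 to 1. For day 15 against day 7 and for the contrast of steps, 0 members were called in each alternative. Among recomputed member values, 470 kept direction and side of the threshold, 15 changed sign, 6 lost a call and 6 gained one. For pathway genes, the rises at day 7 (4) became 1 with no filter and 10 on the rescaled TPM (0 to 6 without 1 library). The falls at day 7 (6) became 3 with no filter and 13 after median-of-ratios scaling (0 to 8). From day 0 to day 15 the rises (1) became 0 with no filter, 11 after median-of-ratios scaling and 7 on the rescaled TPM (0 to 2), and the falls (8) ranged from 1 to 16 without 1 library. The falls at day 15 against day 7 (0) ranged from 0 to 1. The cause of these shifts was not tested.

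Values near 0 changed sign. For day 15 against day 0, EGFR became 0.039 and 0.043, ERBB2 0.19 and 0.20, and FBXO22 0.13 and 0.14 (median-of-ratios and rescaled TPM). ERRFI1 at day 7 became 0.034 on the rescaled TPM, and TMEM266 at day 15 against day 7 became 0.14 and 0.053. Over the fits without 1 library, values at day 15 against day 0 ranged from -0.34 to 0.036 for EGFR, -0.22 to 0.12 for ERBB2, -0.044 to 0.30 for ERBB4 and -0.27 to 0.061 for FBXO22. At day 15 against day 7 they ranged from -0.27 to 0.23 for ERBB3, -0.030 to 0.30 for FBXO22 and -0.076 to 0.086 for TMEM266. ERRFI1 at day 7 ranged from -0.24 to 0.049. The contrast of steps ranged from -0.075 to 0.40 for HBEGF and from -0.25 to 0.039 for ERRFI1.

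With the replicate number as a block, NRG4 at day 7 was 0.71 (limma adjusted p = 0.0432), members called remained 1, 0 and 0, and the block ended the calls of AHSA1, UPP1 and TMEM266 at day 7. Same-numbered libraries correlated in their deviations from the age means at -0.21 to 0.17, within the range of differently numbered ones (-0.33 to 0.37). With so few pairs, this cannot tell whether same-numbered libraries share a litter or batch.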
